A study of Sus scrofa domesticus with 36 samples.

Results

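The genes described here are ALDH1A1, SRD5A1, PAPSS2 and FMO5, 4 enzyme genes out of 25322 Ensembl pig genes, followed in subcutaneous backfat. They were picked because they rise together with CPHL1, a gene named for its likeness to ceruloplasmin and hephaestin, over the backfat libraries. Their covariation with CPHL1 and with each other in backfat is therefore given as a description, without a test. The tests bring in the other tissue of the same pigs, the longissimus dorsi, whose libraries were not used in the choice. The tests between tissues still use the backfat levels that chose the genes, and only the tests of pairs within longissimus are free of them. RNA was sequenced from backfat and from longissimus, a back muscle, of the same 18 commercial crossbred pigs (Danbred 600 X Newsham NC32 by the growth protocol, while the breed label gives each library its own NC number) killed 3 weeks after weaning. The study drew 9 slow and 9 faster growers, but which pig belongs to which class is not stated in the labels, so the classes were not compared. Elsewhere in the labels the stage is weaning and the age 16 or 17 days, at odds with 3 weeks after it. Pigs are named as in the labels, such as Sample_77, and plots give the number alone. The files give no genome build, so no coordinates are printed.

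ALDH1A1 encodes a cytosolic aldehyde dehydrogenase that oxidises retinaldehyde to retinoic acid, the ligand of the retinoic acid receptors. SRD5A1 encodes a steroid reductase that turns testosterone into the stronger androgen dihydrotestosterone. PAPSS2 encodes a synthase of the activated sulfate donor that sulfotransferases use on steroids, proteins and proteoglycans. FMO5 encodes a flavin monooxygenase, a family of microsomal enzymes that oxidise drugs and other foreign compounds, of which FMO5 also acts on ketones. In adipose tissue, retinoic acid and androgens are both known to act on fat cell formation, while skin and its glands are known for local steroid conversion.

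Gene counts per library ran from 2990910 (Sample_656) to 5373410 (Sample_572) in backfat and from 4716540 to 6216460 in longissimus. Levels are in CPM, counts divided by a library size that edgeR's trimmed-mean method had adjusted, and the spread is over 18 libraries of each tissue. Tissue identity held by markers: all 6 adipocyte genes tested were higher in backfat, and all 6 muscle genes tested were higher in longissimus. Among all 12542 genes tested, 46.7% were called higher in backfat and 39.2% higher in longissimus. PLIN1, the coat protein of the lipid droplet, ran from 288 to 699 CPM in backfat and from 1.44 to 29.6 CPM in longissimus. The muscle actin gene ACTA1 ran from 52.4 CPM (Sample_991) to 17526 CPM (Sample_731) in backfat. Its median was 644 CPM in backfat and 158796 CPM in longissimus.

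All 4 enzyme genes were higher in backfat than in muscle. FMO5 was 24.4-fold higher, PAPSS2 17.1-fold, SRD5A1 13.6-fold and ALDH1A1 3.82-fold. SRD5A1, PAPSS2 and FMO5 were higher in 18 of 18 pigs, and for these 3 genes every backfat library lay above every muscle library. ALDH1A1 was higher in 17 of 18 pigs, and its tissues overlapped.

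ALDH1A1, the retinaldehyde dehydrogenase, ran from 4.47 CPM (Sample_231) over a median of 16.2 to 36.5 CPM (Sample_491) in backfat, and from 2.02 CPM (Sample_998) over a median of 3.75 to 8.86 CPM (Sample_991) in longissimus. Of the backfat libraries, 13 lay above every muscle library and the other 5 lay within the range of muscle. The log2 difference was 1.93 (SE 0.238, adjusted p = 1.68e-09, edgeR's quasi-likelihood test). Here and below this test was fitted on tissue alone, without the pairing by pig. Sample_231 was the exception, with 4.47 CPM in its backfat and 4.60 CPM in its longissimus.

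SRD5A1, the steroid reductase, ran from 7.82 CPM (Sample_231) over a median of 27.6 to 153 CPM (Sample_491) in backfat, and from 1.53 CPM (Sample_231) over a median of 2.71 to 5.18 CPM (Sample_889) in longissimus. Its lowest backfat level was 1.51 times its highest muscle level. The log2 difference was 3.77 (SE 0.356, adjusted p = 2.81e-12).

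PAPSS2, which makes the sulfate donor, ran from 18.7 CPM (Sample_572) over a median of 44.5 to 107.2 CPM (Sample_491) in backfat, and from 1.39 CPM (Sample_77) over a median of 3.12 to 5.77 CPM (Sample_176) in longissimus. The groups were farthest apart for this gene, with the lowest backfat level 3.24 times the highest muscle level. The log2 difference was 4.10 (SE 0.260, adjusted p = 2.5e-17).

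FMO5, the monooxygenase, ran from 8.39 CPM (Sample_176) over a median of 27.0 to 77.5 CPM (Sample_186) in backfat, and from 0.493 CPM (Sample_735) over a median of 1.02 to 4.03 CPM (Sample_889) in longissimus. Muscle levels rested on few counts, 2 to 14.5 per library, so its muscle level is the least certain of the set. FMO5 entered the tissue test through its backfat counts. So did ALDH1A1, SRD5A1 and PAPSS2, with median muscle counts of 11.8, 9.5 and 9.75. A gene admitted only through its higher tissue leans towards a call in that direction. The log2 difference of FMO5 was 4.61 (SE 0.342, adjusted p = 2.94e-15).

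A call of this kind was common. Of 12542 genes tested, 85.9% were called in either direction, 46.7% were called higher in backfat and 39.2% higher in longissimus. Further, 28.6% were higher in the backfat of every pig, and 14.8% had every backfat library above every muscle library. The sizes were less common: the share of tested genes with a smaller log2 difference was 99.1% for FMO5, 98.8% for PAPSS2, 98.4% for SRD5A1 and 89.3% for ALDH1A1. Scaled by library totals alone, the median log2 difference of all genes was 1.5, against 0.14 as reported, and the differences became 3.33 for ALDH1A1, 5.16 for SRD5A1, 5.49 for PAPSS2 and 5.98 for FMO5. In whole-tissue RNA, fewer cells that express a gene and less RNA per cell cannot be told apart. The RefSeq table places PAPSS2 over ATAD1 and FMO5 over CHD1L, and reads of overlapping genes may not be separable. CHD1L ran from 26.7 to 43.9 CPM in backfat and had a Spearman rho of 0.28 with FMO5 there. The 6 muscle markers together had a rho of -0.30 to -0.17 with the 4 genes over the backfat libraries. Without the pigs Sample_731, Sample_391, Sample_176 and Sample_911, the 4 highest in ACTA1 in backfat, the differences were 2.10 for ALDH1A1, 3.92 for SRD5A1, 4.34 for PAPSS2 and 4.68 for FMO5.

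**Figure D1:**
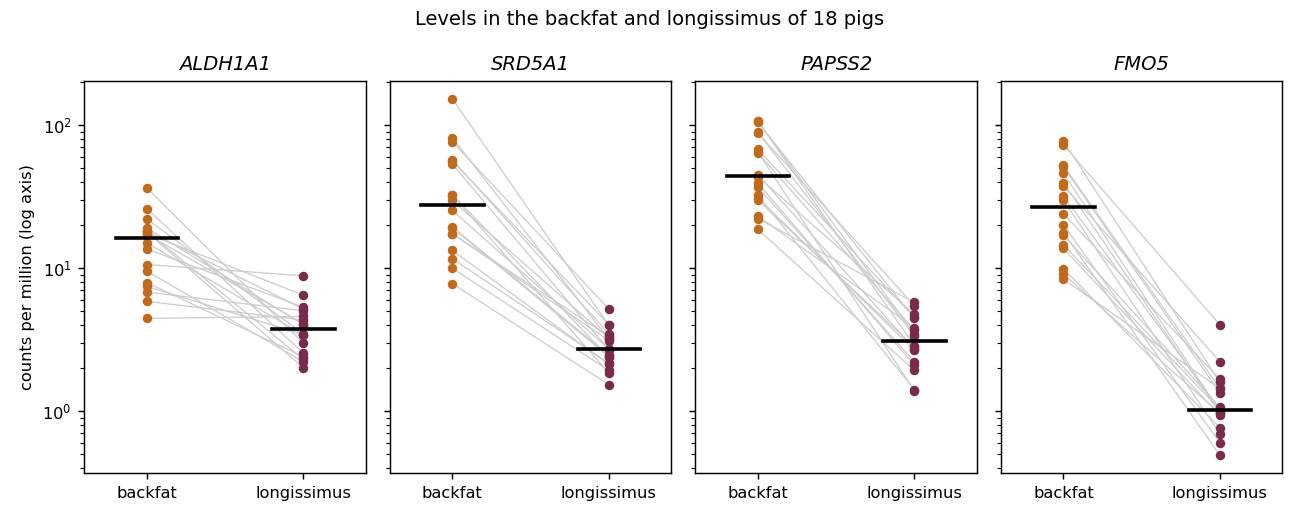
Level of ALDH1A1, SRD5A1, PAPSS2 and FMO5 in CPM (log axis) in the backfat and longissimus of 18 pigs; points are libraries, grey lines join the tissues of a pig and black bars are medians. Backfat lies above longissimus throughout for SRD5A1, PAPSS2 and FMO5, while for ALDH1A1 the tissues overlap between 4.47 and 8.86 CPM.

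Within backfat the 4 genes differed in how widely they varied. SRD5A1 had the widest range, with its highest library at 19.6 times its lowest, against 9.24 times for FMO5, 8.16 times for ALDH1A1 and 5.73 times for PAPSS2. The SD of log2 CPM was 1.16 for SRD5A1, 1.0 for FMO5, 0.82 for PAPSS2 and 0.78 for ALDH1A1, and the median over 13720 genes with at least 1 CPM on average in backfat was 0.33. In longissimus the SD of log2 CPM was 0.39 for SRD5A1, 0.55 for FMO5, 0.54 for PAPSS2 and 0.53 for ALDH1A1, where the median over 12741 genes was 0.37. SRD5A1 was thus the widest in backfat and the narrowest in muscle. Counting alone gives a coefficient of variation of 7.89% at the median count of SRD5A1 in backfat. In longissimus it gives 32.4% for SRD5A1, whose measured coefficient of variation there was 31.8%. For ALDH1A1, PAPSS2 and FMO5 in longissimus it gives 29.2%, 32.0% and 55.5%, beside measured values of 42.9%, 39.6% and 62.2%.

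Ordered by CPHL1, the backfat libraries climbed in all 4 genes. CPHL1 itself ran from 1.05 CPM (Sample_176) over a median of 142.7 to 1120 CPM (Sample_491). These values chose the genes and carry no test. Over the 18 libraries the Spearman rho with CPHL1 was 0.93 for ALDH1A1 (Pearson r of log2 CPM 0.91), 0.89 for PAPSS2 (0.91), 0.87 for SRD5A1 (0.85) and 0.86 for FMO5 (0.90). Among 13719 genes with at least 1 CPM on average in backfat, ALDH1A1 ranked 1 in rho with CPHL1, PAPSS2 ranked 12, SRD5A1 ranked 26 and FMO5 ranked 31. A rho of at least 0.7 with CPHL1 was reached by 1.92% of those genes. The points share each library's depth and scaling factor, and the rho of CPHL1 with the gene count of a library was -0.21.

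The 4 genes tracked each other as closely as they tracked CPHL1. ALDH1A1 and SRD5A1 had the highest rho of the 6 pairs, 0.96, followed by SRD5A1 and PAPSS2 at 0.94 and PAPSS2 and FMO5 at 0.92. ALDH1A1 and FMO5 had the lowest, 0.88. Without the 2 libraries farthest from the median of the second gene, Pearson r for the 6 pairs ran from 0.82 for ALDH1A1 and FMO5 to 0.95 for SRD5A1 and PAPSS2.

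The libraries nearly without CPHL1 give the baseline of each gene. In the backfat of Sample_176, Sample_572 and Sample_231 CPHL1 was at 1.05, 2.61 and 3.72 CPM, and the next library, from Sample_114, was 9.05 times higher at 33.7 CPM. ALDH1A1 was at 6.82, 5.87 and 4.47 CPM in these pigs, inside the range of muscle. SRD5A1 was at 11.7, 10.0 and 7.82 CPM and PAPSS2 at 22.3, 18.7 and 23.2 CPM. FMO5 was at 8.39, 9.13 and 9.92 CPM. For each of the 4 genes these were the 3 lowest backfat libraries, and for SRD5A1, PAPSS2 and FMO5 they still lay above every muscle library. In the 6 libraries lowest in CPHL1, the highest was 2.38 times the lowest for ALDH1A1, 2.46 times for SRD5A1, 2.10 times for PAPSS2 and 2.40 times for FMO5, while CPHL1 spanned 57.0 times.

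Straight lines through CPM of the 18 libraries met zero CPHL1 at 8.64 CPM for ALDH1A1, 11.9 CPM for SRD5A1, 31.8 CPM for PAPSS2 and 16.5 CPM for FMO5. These intercepts are 53.4%, 43.0%, 71.5% and 61.0% of the median backfat level of the same genes. Each intercept lay above the measured levels of its gene in the 3 libraries nearly without CPHL1, by least for SRD5A1. On log scales the slope was 0.24 for ALDH1A1, 0.25 for PAPSS2, 0.30 for FMO5 and 0.33 for SRD5A1, so each gene changed far less than CPHL1 did.

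**Figure D2:**
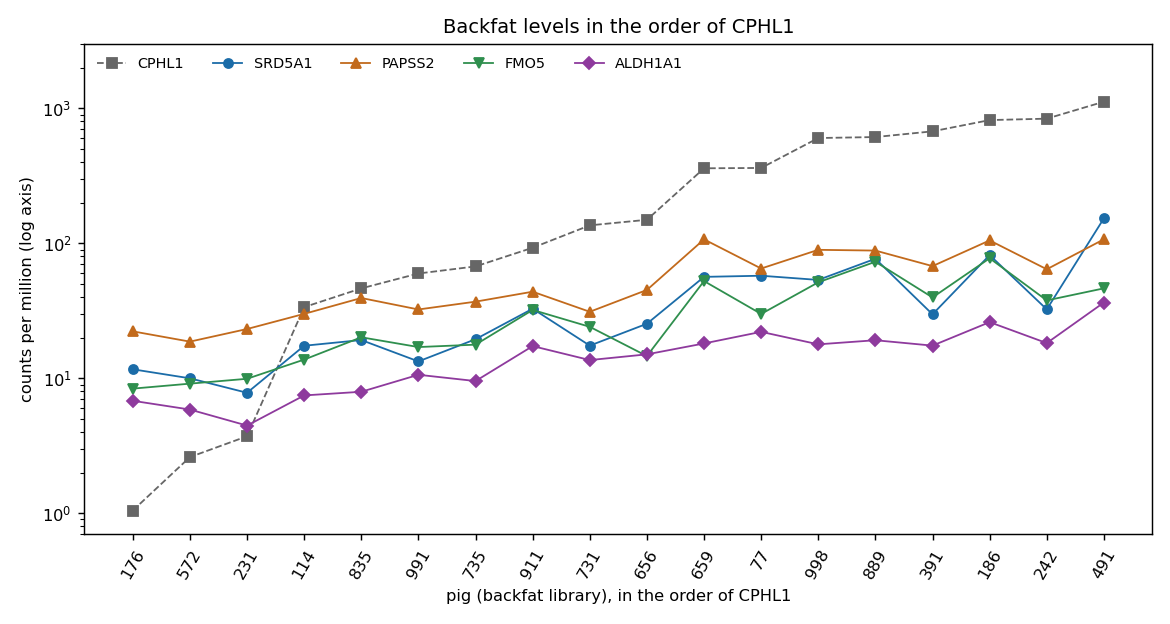
Levels in CPM (log axis) of CPHL1 (dashed) and of SRD5A1, PAPSS2, FMO5 and ALDH1A1 in the 18 backfat libraries, ordered by CPHL1 from Sample_176 at 1.05 CPM to Sample_491 at 1120 CPM. The 4 enzyme genes lie lowest in Sample_176, Sample_572 and Sample_231 and do not follow the order of CPHL1 among the libraries at its upper end.

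At the upper end of CPHL1 the genes parted. CPHL1 steps up 2.41 times between Sample_656 at 149 CPM and Sample_659 at 360 CPM, and 8 libraries lie above this step. Among these 8 the rho with CPHL1 was 0.43 for ALDH1A1, 0.24 for SRD5A1, 0.05 for PAPSS2 and -0.05 for FMO5, against 0.90, 0.81, 0.83 and 0.77 for the same genes among the 10 libraries below it. The 8 libraries span 3.11 times in CPHL1 and the 10 span 142.5 times, so the ranges differ, and with 8 and 10 points these values are a description.

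ALDH1A1 and SRD5A1 stayed together among the 8 libraries, with a rho of 0.90. ALDH1A1 and FMO5 had a rho of 0.14 there, and PAPSS2 had a rho of 0.62 with both SRD5A1 and FMO5. Sample_491 is an example. It was highest in CPHL1, ALDH1A1 (36.5 CPM), SRD5A1 (153 CPM) and PAPSS2 (107.2 CPM), but its FMO5 was 46.4 CPM, below that of Sample_186 (77.5 CPM), Sample_889 (73.1 CPM), Sample_659 (52.6 CPM) and Sample_998 (51.4 CPM). The ratio of SRD5A1 to FMO5 was 3.30 in Sample_491, against a median of 1.05 over the 18 backfat libraries. Sample_391 and Sample_242 were high in CPHL1, at 676 and 839 CPM, but had only 29.8 and 32.4 CPM of SRD5A1, near the 32.8 CPM of Sample_911 at 92.8 CPM of CPHL1.

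The longissimus libraries showed no call for covariation. Of 6 pairs, 0 passed in a two-sided permutation test of Spearman's rho with 100000 permutations and adjustment over the 12603 other genes tested, and the share of those genes called was 0% for each of the 4. At an unadjusted p under 0.05 the counts of genes were 1191 for ALDH1A1, 753 for SRD5A1, 765 for PAPSS2 and 684 for FMO5. The smallest p that 100000 permutations can give is 1e-05. Adjusted over 12603 genes, a single gene at that p would not pass 0.05, so a call needed several genes near it. For this reason, and since no gene at all was called, the test does not show that the pairs are unrelated.

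PAPSS2 and FMO5 had the highest rho of the 6 in muscle, 0.49 (permutation p = 0.0421, adjusted p = 0.803), with a Pearson r of 0.54 (permutation p = 0.0172, adjusted p = 0.977) and an r of 0.44 without the 2 pigs farthest from the median of FMO5. ALDH1A1 and SRD5A1, the closest pair in backfat, had a rho of -0.33 in muscle (permutation p = 0.183, adjusted p = 0.735) and an r of -0.29 (permutation p = 0.240, adjusted p = 0.802; -0.35 without 2 pigs). The rho of the other 4 pairs ran from 0.06 for SRD5A1 and PAPSS2 to 0.25 for ALDH1A1 and FMO5, with permutation p between 0.307 and 0.818 and adjusted p of at least 0.810. Their Pearson r ran from 0.01 for ALDH1A1 and PAPSS2 to 0.40 for SRD5A1 and FMO5 (permutation p = 0.0998 for that pair, adjusted p = 0.560), and from 0.14 to 0.39 without 2 pigs. Median deposited counts in muscle were 11.8 for ALDH1A1, 9.5 for SRD5A1, 9.75 for PAPSS2 and 3.25 for FMO5, and at this depth counting error alone is 29.2% to 55.5% of a level. CPHL1 reached 1 CPM in 8 muscle libraries, short of the 9 required, and entered no test in muscle.

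**Figure D3:**
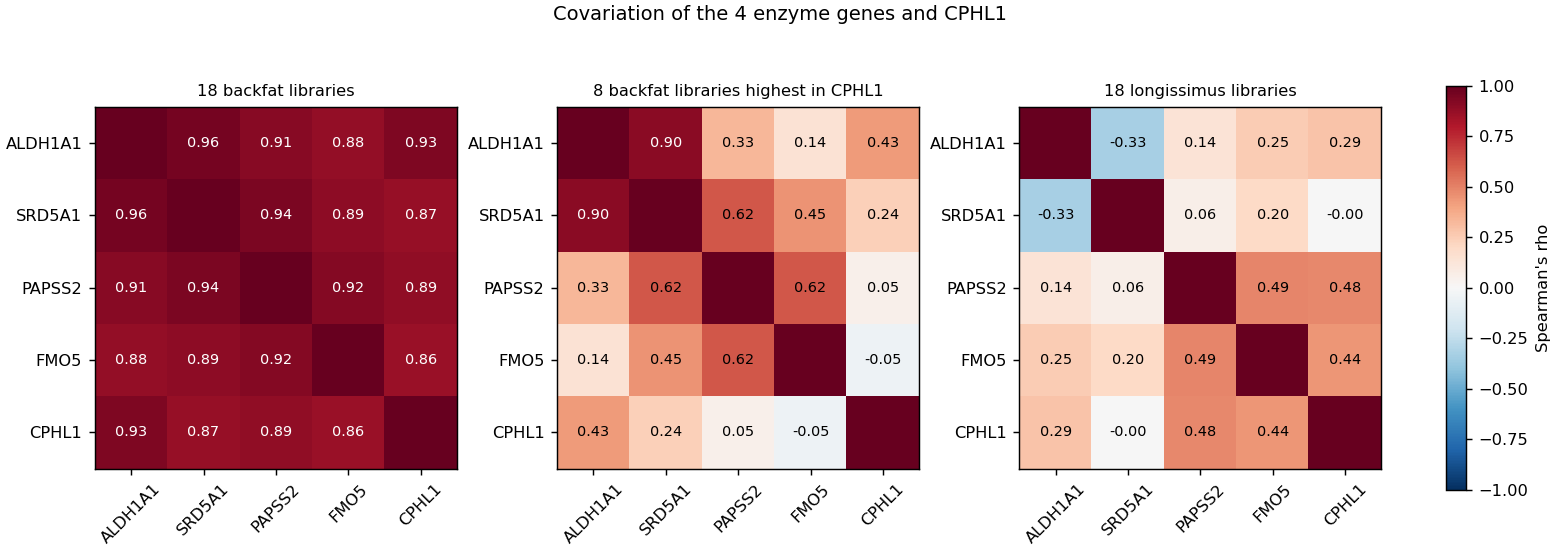
Spearman's rho between ALDH1A1, SRD5A1, PAPSS2, FMO5 and CPHL1 over all 18 backfat libraries (left), over the 8 backfat libraries highest in CPHL1 (middle) and over 18 longissimus libraries (right). Values between different genes run from 0.86 to 0.96 on the left, from -0.05 to 0.90 in the middle and from -0.33 to 0.49 on the right.

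Whether a pig's level in fat goes with its level in muscle was tested gene by gene over the 18 pigs. SRD5A1 had a rho of 0.70 between the tissues (permutation p = 0.00175), which did not pass over the 11109 genes tested (adjusted p = 0.0953). Its Pearson r was 0.75 (permutation p = 0.00038), which did pass (adjusted p = 0.0320), and r was 0.66 without Sample_231 and Sample_491. In muscle SRD5A1 rested on 4.5 to 17.5 counts per library. Its coefficient of variation there, 31.8%, was no larger than the 32.4% that counting alone gives at its median count. By Spearman 0.585% of genes were called and by Pearson 1.8%. Leaving out each pig in turn, the rho of SRD5A1 ran from 0.64 to 0.78. Sample_231 was lowest in both tissues, at 7.82 CPM in backfat and 1.53 CPM in longissimus, and Sample_889 was highest in longissimus and the third highest in backfat.

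ALDH1A1 had a rho of -0.25 between the tissues (permutation p = 0.322, adjusted p = 0.692) and an r of -0.22 (permutation p = 0.378, adjusted p = 0.732; -0.16 without 2 pigs). PAPSS2 had a rho of 0.23 (permutation p = 0.360, adjusted p = 0.719) and an r of 0.25 (permutation p = 0.320, adjusted p = 0.687; 0.27 without 2 pigs). The median rho over all genes tested was 0.18. FMO5 was under 1 CPM in too many muscle libraries to enter, and with every gene counted in all libraries admitted its rho was 0.45 (permutation p = 0.0643, adjusted p = 0.382).

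**Figure D4:**
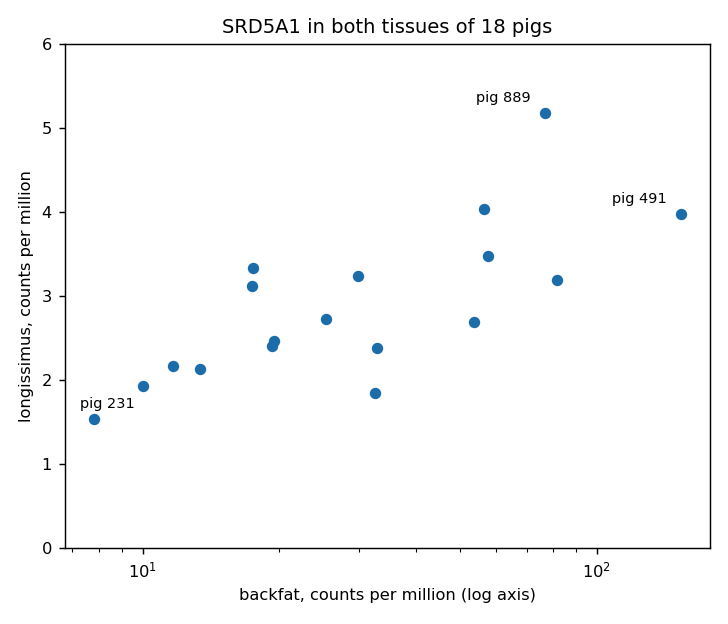
SRD5A1 in the backfat (horizontal, CPM, log axis) and the longissimus (vertical, CPM) of 18 pigs, 1 point per pig. Sample_231 is lowest in both tissues at 7.82 and 1.53 CPM, and Sample_491 is highest in backfat at 153 CPM with 3.98 CPM in longissimus.

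The genes most like the 4 enzymes over the backfat libraries included several known from epithelia. POU2F3, a transcription factor of epidermis and of chemosensory epithelial cells, was among the 5 genes with a symbol most alike for each of the 4. Its rho was 0.95 with ALDH1A1, 0.99 with SRD5A1, 0.97 with PAPSS2 and 0.92 with FMO5. POU2F3 ran from 0 to 29.7 CPM in backfat and reached at most 0.721 CPM in longissimus. For ALDH1A1 the others were SRD5A1 itself, EHF (0.95), an epithelial factor of the ETS family, C16orf89 (0.95) and the transcription factor TFAP2B (0.95).

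For SRD5A1 the others were the transport ATPase gene ATP13A4 (0.98), CDH1 (0.98), which encodes the epithelial cadherin, GRHL2 (0.98), a factor that keeps epithelial identity, and the connexin gene GJB1 (0.97). CDH1 ran from 0.248 to 40.8 CPM in backfat and had a median of 1.32 and a highest of 2.16 CPM in longissimus. For PAPSS2 they were STAC2 (0.97), the kinase gene CDC42BPG (0.97), the tight junction gene CLDN8 (0.97) and C16orf89 (0.97). STAC2 and CDC42BPG were counted highly enough for the tissue test, with log2 differences of 3.23 (SE 0.546) and 1.73 (SE 0.255). For FMO5 they were the desmosome gene DSG2 (0.93), the polarity gene PARD6B (0.92), C16orf89 (0.92) and STAC2 (0.92). Likeness here is Spearman's rho over 18 libraries among 13719 genes, and it says nothing of shared function. Genes without a symbol were passed over in naming, also where they ranked higher.

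A rho of at least 0.7 was reached by 2.45% of all genes with ALDH1A1, 2.62% with SRD5A1, 2.50% with PAPSS2 and 2.17% with FMO5. Of 9 epithelial markers with at least 1 CPM on average in backfat, 6 had a rho of at least 0.7 with each of the 4 enzyme genes and 5 had one with CPHL1. EPCAM, the epithelial adhesion gene, had a rho of 0.96 with SRD5A1 and 0.95 with PAPSS2, and was at 0 in 1 backfat library. CLDN4 did not follow, with a rho of -0.01 with SRD5A1 and -0.15 with FMO5. KRT8 and PRLR also fell short of 0.7, at 0.59 and 0.55 with SRD5A1. The summed epithelial markers ran from 34.1 to 267 CPM in backfat, highest in Sample_491, and from 4.01 to 17.7 CPM in longissimus. Over the backfat libraries this sum had a rho of 0.50 with ALDH1A1, 0.61 with SRD5A1, 0.53 with PAPSS2 and 0.45 with FMO5. CLDN4, which did not follow the 4 genes, had the highest backfat mean of the summed markers, 54.3 CPM.

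Of 5 keratinocyte markers 3 had a rho of at least 0.7 with each of the 4, among them DSP (0.94 with SRD5A1), while KRT10 had -0.06 with SRD5A1. Of 9 markers of sebaceous glands 2 did, GLYATL2 (0.93 with SRD5A1) and KRT79 (0.93), the latter at 0 in 4 backfat libraries. The median rho of those 9 was 0.15 with ALDH1A1, 0.25 with SRD5A1, 0.20 with PAPSS2 and 0.21 with FMO5. ACSBG1 had the lowest, -0.42 with SRD5A1 and -0.59 with PAPSS2. AWAT2 was at 0 in every backfat library. Of the adipocyte markers 0 of 6 reached 0.7, with rho from -0.43 to 0.25 over the 4 genes. Likewise 0 of 6 muscle, 0 of 5 macrophage, 0 of 3 endothelial and 0 of 5 fibroblast markers did. At the shares over all genes, a count of 0 in lists this short is no contrast. The summed keratinocyte markers ran from 22.1 to 247 CPM in backfat and from 95.9 to 184 CPM in longissimus, the sebaceous markers from 185.6 to 515 CPM in backfat and from 760 to 1914 CPM in longissimus, and the adipocyte markers from 1442 to 2600 CPM in backfat and from 326 to 761 CPM in longissimus. CRAT, a carnitine acetyltransferase gene, made up most of the sebaceous sum in muscle, with a mean of 143.5 CPM in backfat and 1407 CPM in longissimus. GLYATL2 averaged 95.8 CPM in backfat and 0.469 CPM in longissimus, and of 6 sebaceous markers tested 3 were higher in backfat and 1 in longissimus. Among all genes tested these shares were 46.7% and 39.2%. Over the backfat libraries the keratinocyte sum had a rho of 0.84 to 0.94 with the 4 genes. The sebaceous sum had 0.78 to 0.82 and the adipocyte sum -0.44 to -0.21. DSP had the highest backfat mean of the keratinocyte markers, 76.0 CPM. The single markers given here were chosen after their values were seen. The part of such cells in the levels of the 4 genes was not tested.

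Apart from the 4 genes, CYB5A was the only gene of the pathway lists to reach a rho of 0.7 with CPHL1, and 1.92% of all genes did, so such counts in short lists set no list apart. Of 22 retinoid genes measured in backfat only ALDH1A1 had a rho of at least 0.7 with CPHL1, and the list median was 0.09, against 0.04 over all genes. FABP5, a carrier of fatty acids and retinoic acid, had the lowest, -0.53. CRABP2, which carries retinoic acid to its receptors, was at 0.47, RBP4, the retinol carrier of plasma, at -0.34, and the retinaldehyde reductase DHRS3 at -0.20. The close relative ALDH1A2, which also makes retinoic acid, was at 0.55.

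Against muscle, 13 of 19 retinoid genes tested were higher in backfat, 3 were higher in longissimus (1 with scaling to library totals) and 3 did not pass, with a list median of 1.07 on the log2 scale and 0.14 over all genes. Over all genes tested, 46.7% were higher in backfat and 39.2% higher in longissimus. With scaling to library totals, genes higher in longissimus fell from 4919 to 1520 in all, which bears on this and the later lists. RBP4 differed by 5.17 (SE 0.248), CRABP2 by 3.71 (SE 0.323), DHRS3 by 1.10 (SE 0.131) and FABP5 by 0.46 (SE 0.120). RXRB, a retinoid X receptor, differed by -0.58 (SE 0.0748), and by 0.79 with scaling to library totals. DHRS4 was at -0.22 (SE 0.123, adjusted p = 0.0900) and passed with the pig as a block (-0.30, adjusted p = 0.0143).

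Among 14 steroid genes measured in backfat, 2 had a rho of at least 0.7 with CPHL1, SRD5A1 and CYB5A. CYB5A encodes a cytochrome that passes electrons to steroid and fatty acid enzymes. It ran from 65.8 over a median of 120.4 to 189.8 CPM in backfat, with a rho of 0.85 with CPHL1 and with FMO5, 0.84 with ALDH1A1, 0.82 with PAPSS2 and 0.77 with SRD5A1. HSD11B1, which regenerates active glucocorticoid, had a rho of 0.62 with CPHL1 and 0.79 with SRD5A1. HSD17B7, of cholesterol synthesis, had the lowest rho with CPHL1, -0.40.

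Of 13 steroid genes tested 8 were higher in backfat and 4 in longissimus (0 with scaling to library totals), and 1 did not pass. Among all genes tested 46.7% were higher in backfat and 39.2% in longissimus, and the list had a median log2 difference of 0.82. TSPO, a protein of the outer mitochondrial membrane linked to cholesterol transport, differed by 3.36 (SE 0.185), HSD11B1 by 1.22 (SE 0.133), CYB5A by 0.94 (SE 0.105) and HSD17B12, of fatty acid elongation, by 0.82 (SE 0.144). The glucocorticoid receptor NR3C1 differed by -0.69 (SE 0.121), and by 0.65 with scaling to library totals. HSD17B4, a peroxisomal enzyme, was at 0.17 (SE 0.0938, adjusted p = 0.0872). The sulfate donor route and steroids meet at steroid sulfation, but SULT1E1 and SULT2A1, sulfotransferase genes for steroids, matched no gene ID and were not analysed here. SULT2B1, another SULT gene, averaged 1.29 CPM in backfat. Its rho there was 0.06 with PAPSS2, 0.12 with SRD5A1 and -0.14 with CPHL1, and it was named after its values were seen.

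Among 22 sulfate genes measured in backfat only PAPSS2 had a rho of at least 0.7 with CPHL1, and the list median was 0.07. The sulfatase activator SUMF1 was at 0.59, the tyrosine sulfotransferase TPST1 at 0.04, the chondroitin sulfotransferase CHST3 at -0.05, and CHST7, a relative of CHST3, was lowest at -0.46. Of 20 sulfate genes tested 14 were higher in backfat, 5 were higher in longissimus (2 with scaling to library totals) and 1 did not pass, beside 46.7% and 39.2% of all genes, with a median log2 difference of 0.82. CHST3 differed by 2.01 (SE 0.0900), UST, a sulfotransferase of dermatan and chondroitin chains, by 1.81 (SE 0.105), TPST1 by 1.78 (SE 0.131) and SUMF1 by 1.49 (SE 0.0758). HS6ST1, which sulfates heparan sulfate, differed by -3.33 (SE 0.115).

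Among the family members described here, FMO5 alone had a rho of at least 0.7 with CPHL1, which the choice of genes had fixed. Its rho was 0.86, while FMO2 was at -0.10, FMO4 at -0.25 and FMO1 at -0.37. Between tissues these 4 were higher in backfat, as were 46.7% of all genes tested. The log2 differences were 4.61 (SE 0.342) for FMO5, 3.36 (SE 0.242) for FMO2, 2.39 (SE 0.135) for FMO4 and 1.14 (SE 0.206) for FMO1. The genes resemble each other, and reads that fit several of them could be lost or split by the counting.

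ALDH1A1 likewise was the only 1 of 14 aldehyde dehydrogenase genes measured in backfat with a rho of at least 0.7 with CPHL1. ALDH1B1, a mitochondrial relative, was at 0.63, ALDH1A2 at 0.55 and ALDH6A1, of valine breakdown, at 0.50, and the list median was 0.33. Of 13 genes tested 6 were higher in backfat, 5 were higher in longissimus (2 with scaling to library totals) and 2 did not pass, close to the 46.7% and 39.2% of all genes, with a median log2 difference of -0.12. The folate enzymes ALDH1L1 and ALDH1L2 differed by 3.95 (SE 0.215) and 1.83 (SE 0.123), while ALDH2, the mitochondrial enzyme of ethanol breakdown, was at -3.31 (SE 0.152) and ALDH4A1, of proline breakdown, at -3.33 (SE 0.184).

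**Figure D5:**
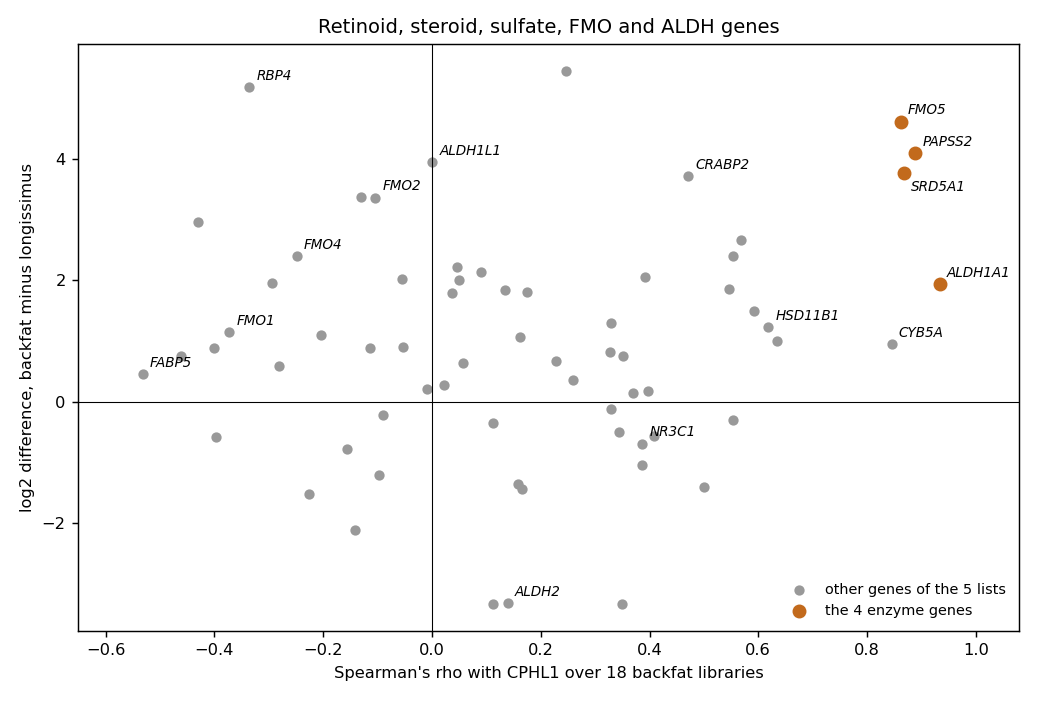
Genes of the retinoid, steroid, sulfate, FMO and ALDH lists by Spearman's rho with CPHL1 over 18 backfat libraries (horizontal) and log2 difference of backfat minus longissimus (vertical); orange points are the 4 enzyme genes, which were picked by the horizontal axis, and grey points are the other list genes. CYB5A at a rho of 0.85 is the only grey point to the right of 0.7.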

How the data were processed

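The authors deposited 1 table of expected counts per Ensembl gene (25322 genes, 36 libraries), not normalised and in steps of 0.5, with GSNAP and HTSeq named per the submitters' processing notes and no build or annotation given in the sources used here. Values were rounded to whole numbers. A further 5 lines that name no gene were left out, of which counts in no annotated gene made up 34.5% ± 5.60 of a backfat library and 19.9% ± 4.01 of a longissimus library (SD, n = 18). Symbols were found for 11804 gene IDs. The labels' protocols do not say that libraries kept strand.

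Tissues were compared with edgeR 4.0.16 in R 4.3.3 (robust quasi-likelihood test, tissue alone, default filter on low counts, 12542 genes), with Benjamini-Hochberg adjustment over all genes and a threshold of 0.05. The SE is the log2 difference over the square root of F. Correlations used log2 CPM with a prior count of 2. Permutation tests drew 100000 permutations, over genes that reached 1 CPM in 15 libraries or more in both tissues (between tissues) or in 9 longissimus libraries or more. They ran in Python 3.11.15 (NumPy 2.4.6 and SciPy 1.17.1, with tables in pandas 2.3.3 and loops in numba 0.67.0). DESeq2 1.42.0 was an alternative. Figures used Matplotlib 3.10.9. Both kinds of test were first tested on simulated data.

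Libraries with 1 number come from 1 pig, so the numbers pair the samples. Deviations from the tissue means correlated at 0.229 on average between the tissues of a pig and at -0.0135 between pigs, and 9 of 18 pigs matched their own muscle best. The 4 genes, CPHL1 and the lists were chosen with earlier results of these data known. Named genes are the 4 and CPHL1, and the 5 genes with a symbol most like each. Of each pathway list they are up to 6 genes by mean backfat CPM with those of highest and lowest rho with CPHL1. Any tested FMO or ALDH gene could be named. Single genes of the marker lists were named with their values known. Unused columns numbered 0. A further gene of these lists is not reported here.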

Additional observations from a re-analysis of the deposited data

How the results depend on the processing

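The log2 differences of ALDH1A1, SRD5A1, PAPSS2 and FMO5 kept their direction and their call under all 7 alternatives. With the pig as a replicate block they were 1.83 (SE 0.230), 3.56 (SE 0.185), 4.01 (SE 0.183) and 4.58 (SE 0.160). The SEs given as reported leave the pairing by pig aside. Of the genes and lists named the block added calls for DHRS4 and DSP. Counts of genes higher in backfat were 5853 as reported, 10148 with library totals and 9077 with no filter on low counts, and counts higher in longissimus were 4919 as reported and 1520 with library totals. The between-tissue correlation of SRD5A1 passed by Pearson (r 0.75), while by Spearman its adjusted p ran from 0.0781 to 0.146 over the alternatives. The rho of ALDH1A1 and PAPSS2 in longissimus, 0.14 as reported, was -0.0691 with library totals and -0.0374 without Sample_731, Sample_391, Sample_176 and Sample_911, and it was called in none of these. Compared with the range over leaving out each pig in turn, the rho with CPHL1 in backfat moved with library totals to 0.91 for ALDH1A1 and 0.90 for FMO5, and to 0.83 for FMO5 without Sample_731, Sample_391, Sample_176 and Sample_911. Genes higher in longissimus under library totals numbered 1 in the retinoid, 0 in the steroid, 2 in the sulfate and 2 in the ALDH list. The cause of these shifts was not tested. Low counts in muscle limit the correlations there.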

Other observations

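CPHL1 was lower in the backfat than in the longissimus of 1 pig, Sample_176. Its backfat library held 1.05 CPM of CPHL1 (a deposited count of 7.5), the lowest of all backfat libraries, and its longissimus library 15.9 CPM (a count of 44.5). The other 17 longissimus libraries held at most 2.99 CPM. PAPSS2 was also highest in the longissimus of Sample_176, at 5.77 CPM against at most 5.47 CPM in the other 17, while SRD5A1 ranked 14 of 18 there at 2.16 CPM. EPCAM and GRHL2 were highest in that longissimus library too, at 2 counts each, while ESRP1 was at 0 there and reached 1.23 CPM in another. ACTA1 was at 212290 CPM and PLIN1 at 3.25 CPM in it, within the range of the other longissimus libraries. Sample_176 was chosen after its values were seen.

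RARRES1, a retinoic acid responsive gene, had a rho of 0.76 with PAPSS2 and 0.70 with SRD5A1 over the backfat libraries and 0.57 with CPHL1. It was named after its values were seen, and no test was made of it within backfat. It ran from 3.31 to 22.7 CPM in backfat and differed from longissimus by 2.67 on the log2 scale (SE 0.267, adjusted p = 8.9e-12, edgeR's quasi-likelihood test). Its longissimus mean was 1.49 CPM, below the 2.88 CPM of SRD5A1, so it too entered the test through its backfat counts. Such a gene leans towards a call in that direction, and 46.7% of all genes tested were called higher in backfat.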
